A study of Mus musculus with 2 samples.

Results

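The annexin genes described here were Anxa1, Anxa2, Anxa3, Anxa4, Anxa5, Anxa6, Anxa7 and Anxa11, 8 mouse genes taken by symbol from the 34745 Ensembl genes with a value in each library. Their values came from 2 mRNA sequencing libraries of C57BL/6 peritoneal macrophages, 1 labelled Kdm2b-/- (the KO-labelled library) and 1 labelled wild type (WT). Kdm2b encodes a histone demethylase, and the labels do not say how the gene was deleted. Per the labels, thioglycollate had been injected 4 days before harvest in both cases, so that the cells were elicited rather than resident macrophages. Both libraries were also made after exposure to 100 ng/ml of lipopolysaccharide (LPS), for 4 h by the sample characteristics and for 3 h by the treatment protocol, and no unstimulated library was used here. With 1 library per genotype there were no replicates, so no SD, no p-value and no spread between animals could be given, and each difference below is one between these libraries. The labels do not say whether a library came from 1 animal or from a pool.

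Annexins are cytosolic proteins that bind acidic phospholipids, phosphatidylserine in particular, when calcium rises. Their conserved core docks on the membrane, and a variable N-terminal tail binds partners such as S100 proteins. In macrophages they are known for membrane repair, vesicle traffic and the uptake of dying cells, and Anxa1 is known as an anti-inflammatory mediator that acts through formyl peptide receptors.

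The libraries differed in more than their genotype label. Kdm2b itself stood at 0.326 FPKM in the KO-labelled library and 0.205 FPKM in the WT library (FPKM, fragments scaled to transcript length and to the mapped fragments of the library), or about 45 fragments in the KO-labelled library and 29 in the WT library, so the gene-level value showed no loss of the transcript. A deleted exon need not show in such a value, and no value per exon was at hand. The Y-linked genes Eif2s3y and Ddx3y were at 10.2 and 5.72 FPKM in the KO-labelled library and were both listed at 0 in the WT library, whereas Xist, the RNA that coats the inactive X chromosome of female cells, was at 0.00398 FPKM in the KO-labelled library and 8.55 FPKM in the WT library. Sex and genotype label therefore cannot be told apart in any value below. Depth, estimated from the values themselves, was about 26800000 fragments in the KO-labelled library and 27300000 in the WT library. All 8 macrophage markers checked, among them Adgre1, Csf1r and Cd68, exceeded 11 FPKM in each library. In bulk RNA, fewer cells of a type and less RNA per cell cannot be told apart.

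Anxa5, Anxa1 and Anxa2 made up most of the annexin mRNA, and the order of the 8 levels was the same in both libraries. Anxa5, whose protein binds exposed phosphatidylserine and is used to stain apoptotic cells, was the most abundant, at 713 FPKM in the KO-labelled library and 704 FPKM in the WT library. It ranked 86 among all genes in the KO-labelled library and 90 in the WT library. Anxa1, which encodes the glucocorticoid-inducible lipocortin, followed at 466 FPKM in the KO-labelled library and 568 FPKM in the WT library. Anxa2, whose protein pairs with S100a10 at the plasma membrane and binds plasminogen activators, stood at 360 FPKM in the KO-labelled library and 411 FPKM in the WT library. Together these 3 genes held 80.4% of the summed annexin FPKM in the KO-labelled library and 81.0% in the WT library.

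The other members spanned a wide range. Anxa7, also called synexin, which was first known for aggregating secretory granules, was at 174 FPKM in the KO-labelled library and 170.5 FPKM in the WT library. Anxa4, which assembles into arrays on membranes, was at 93.3 FPKM in the KO-labelled library and 90.1 FPKM in the WT library. Anxa3 was at 63.9 FPKM in the KO-labelled library and 78.6 FPKM in the WT library. Anxa6, the member with a duplicated annexin core, was at 36.7 FPKM in the KO-labelled library and 50.2 FPKM in the WT library. Anxa11, which has a long N-terminal tail that binds the calcium sensor ALG-2, was the least abundant, at 7.33 FPKM in the KO-labelled library and 5.56 FPKM in the WT library. From Anxa5 to Anxa11 the level differed 97.3-fold in the KO-labelled library and 127-fold in the WT library. The summed level of the 8 genes was 1914 FPKM in the KO-labelled library and 2078 FPKM in the WT library, a difference of -7.89%. As a share of all FPKM in its library, the family held 0.508% in the KO-labelled library and 0.517% in the WT library.

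**Figure D1:**
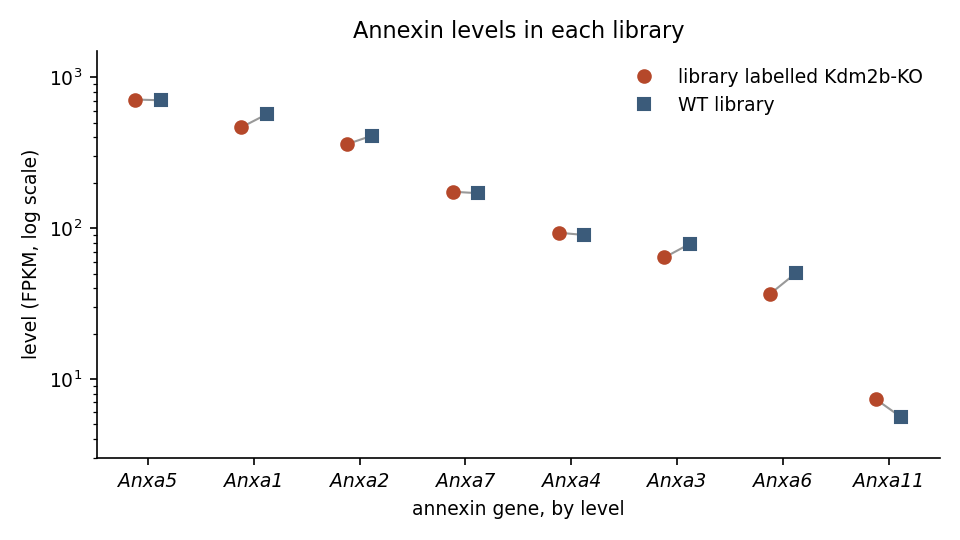
Level of each annexin gene in FPKM (log axis), with a circle for the library labelled Kdm2b-KO and a square for the WT library, 1 library each. The order from Anxa5 (713 FPKM KO-labelled, 704 FPKM WT) to Anxa11 (7.33 FPKM KO-labelled, 5.56 FPKM WT) is the same in both, and the lines between libraries are close to level for Anxa5, Anxa7 and Anxa4.

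Of the remaining mouse annexins, none reached 1 FPKM in the KO-labelled library. Anxa8 was at 0.949 FPKM in that library and 1.74 FPKM in the WT library, or about 48 fragments in the KO-labelled library and 89 in the WT library. Anxa9 was at 0.917 FPKM in the KO-labelled library and 1.05 FPKM in the WT library. Anxa13 was at 0.0408 FPKM in the KO-labelled library and was listed at 0 in the WT library, and Anxa10 was listed at 0 in both. Anxa8 was the only one of these 4 with a mean over both libraries of at least 1 FPKM, the floor used for comparisons.

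None of the 8 annexins differed 2-fold between the libraries. Libraries were compared by a log2 ratio, KO-labelled over WT, computed on FPKM + 1, a scale that understates the change of low genes. All 8 members passed the floor. At least 2-fold higher were 0 of 8, beside 0.863% of the 9038 genes past the floor, and at least 2-fold lower were 0 of 8, beside 1.02% of them. At 1.5-fold the members' counts were again 0 higher and 0 lower, beside 4.7% and 2.8% of all genes. With 8 genes and so low a background, a count of 0 does not set the family apart.

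Within these limits the members went different ways. Anxa6 had the lowest log2 ratio, -0.44, with a 95% counting interval of -0.53 to -0.38 from about 2448 fragments in the KO-labelled library and 3406 in the WT library. Its FPKM differed by -26.9%, and 4.88% of all genes past the floor had a lower log2 ratio. Anxa3, abundant in neutrophils, had a log2 ratio of -0.29 (interval -0.37 to -0.23), and Anxa1 one of -0.29 as well (interval -0.31 to -0.26). Anxa2 followed at -0.19 (interval -0.22 to -0.16). All 4 of these kept a negative value under every scaling tried.

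Anxa5, Anxa7 and Anxa4 were close to level, and Anxa11 was higher. Their log2 ratios were 0.02 for Anxa5, 0.03 for Anxa7 and 0.05 for Anxa4, and each was below 0 when the libraries were scaled to a median log2 ratio of 0 or to equal upper quartiles. The counting intervals of Anxa5 and Anxa7 included 0, and that of Anxa4 did so when the mean transcript length replaced the longest. Anxa11 had a log2 ratio of 0.34 with an interval of 0.21 to 0.58, from about 537 fragments in the KO-labelled library and 415 in the WT library, and it stayed above 0 under every scaling tried. The intervals were computed from FPKM without a pseudocount and cover counting error alone. They treat every fragment as independent, which amplified copies of a molecule are not, so they can be too narrow even for that error. They lay above 0 for 2 members, below 0 for 4 and across 0 for 2, beside 43%, 20.3% and 36.7% of all genes with an annotated length. At this depth, then, the interval left out 0 for most genes, with fragments taken from the longest transcript and the libraries not rescaled.

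**Figure D2:**
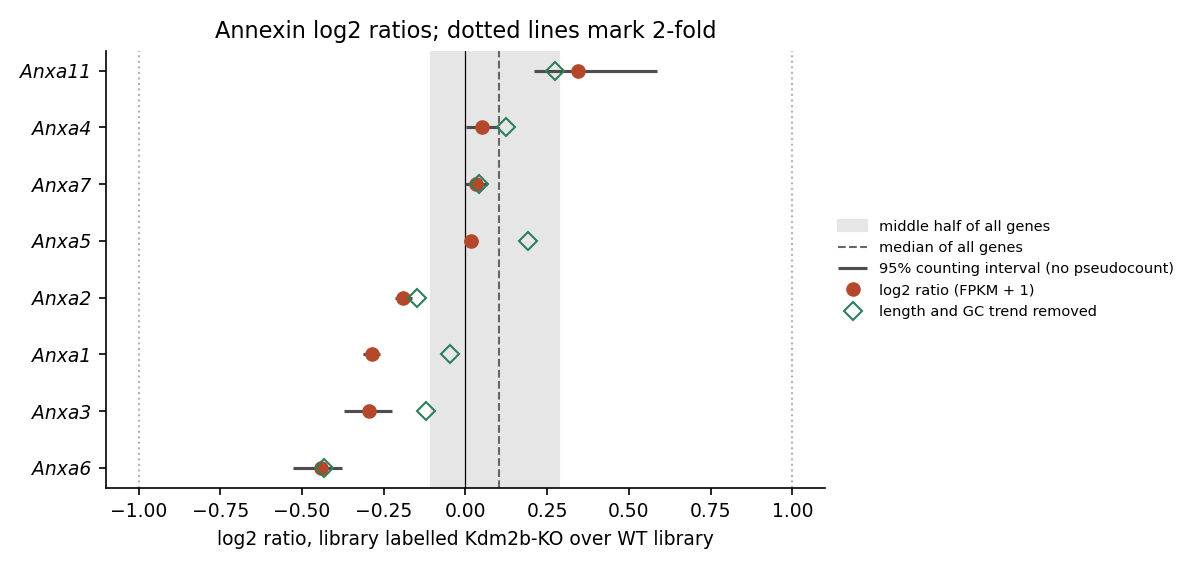
Log2 ratio of each annexin, library labelled Kdm2b-KO over WT library: filled circles on the FPKM + 1 scale, bars the 95% counting interval without a pseudocount, and diamonds the value with the trend in transcript length and GC content removed. The grey band holds the middle 50% of all genes past the floor, the dashed line their median (0.10), and every annexin lies inside the dotted 2-fold lines.

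The median log2 ratio was -0.09 over the 8 annexins and 0.10 over all 9038 genes past the floor. Against that median of all genes, 7 members lay below and 1, Anxa11, above. That split was 5 below and 3 above with the trend in transcript length and GC content removed, 6 and 2 with a floor of 5 FPKM, and 4 and 4 with no floor. Of the 34745 genes listed, 16185 were above 0 FPKM in the KO-labelled library and 16062 in the WT library. With no floor the median of all genes was therefore 0, and that last split is the same as the split against 0. Against 0 itself, 4 members lay below 0 and 4 above 0, beside 36.8% and 63.2% of all genes. The ratio of one annexin to another within a library does not depend on how libraries are scaled. Such ratios are not corrected for the trend in transcript length and GC content. The pairs were chosen with values in view, and Anxa11 and Anxa6 are the members with the highest and lowest log2 ratios. Anxa11 stood at 0.1996 of the Anxa6 level in the KO-labelled library and 0.111 in the WT library, 1.80 times as high. Anxa6 stood at 0.0515 of the Anxa5 level in the KO-labelled library and 0.0713 in the WT library. Anxa1 was at 0.653 of the Anxa5 level in the KO-labelled library and 0.807 in the WT library, and Anxa3 at 0.685 of the Anxa4 level in the KO-labelled library and 0.873 in the WT library. Anxa7 kept nearly the same ratio to Anxa5, 0.245 in the KO-labelled library and 0.242 in the WT library.

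Over all genes the log2 ratio went with transcript length, and Anxa3 and Anxa1, the annexins with the shortest transcripts, were among the lower members. The median of all genes was -0.23 in the shortest 10% and 0.29 in the longest 10%. Anxa3, Anxa1 and Anxa5, with longest annotated transcripts of 1595, 1674 and 1731 bases, lay in a length group whose median was -0.09. Anxa6, at 2489 bases, lay in a group with a median of 0.05. Once the trend in length and GC content was taken out, Anxa1 moved to -0.05, Anxa3 to -0.12 and Anxa5 to 0.19, while Anxa6 stood at -0.43 and Anxa11 at 0.27. The median of the 8 was then -0.0019, with 4 members on either side of 0. That of all genes, which the correction keeps by design, was 0.10. The part of transcript length or RNA fragmentation in these differences was not tested beyond this correction.

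**Figure D3:**
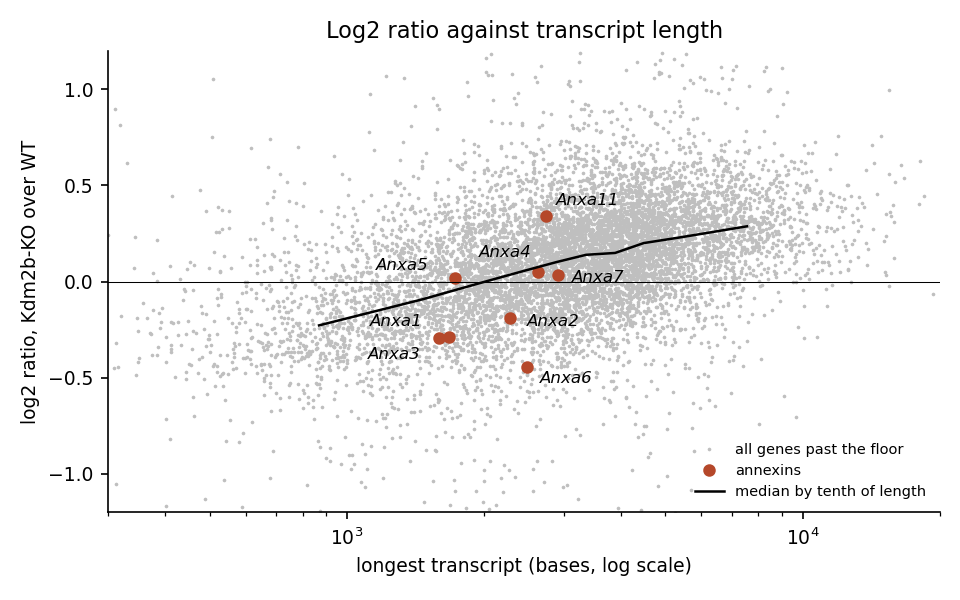
Log2 ratio, library labelled Kdm2b-KO over WT library, against the longest annotated transcript in bases (log axis) for annexins (large points) and all genes past the floor (small points); 105 genes fall outside the axes. The black line joins the medians of successive 10% groups by length and runs upward, with Anxa6 (-0.44) furthest below it and Anxa11 (0.34) furthest above it among annexins.

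The genes lie apart from one another, on chromosomes 3, 5, 6, 9, 11, 14 and 19 of GRCm38. Anxa6 (ENSMUSG00000018340) runs from 54979108 to 55033445 on chromosome 11, minus strand, and Anxa1 (ENSMUSG00000024659) from 20373428 to 20390944 on chromosome 19, minus strand. Anxa5 (ENSMUSG00000027712) lies on chromosome 3 from 36448923 to 36475894, minus strand, and Anxa2 (ENSMUSG00000032231) on chromosome 9 from 69453620 to 69491795, plus strand. Anxa3 (ENSMUSG00000029484) lies on chromosome 5 from 96793339 to 96845966, plus strand, and Anxa4 (ENSMUSG00000029994) on chromosome 6 from 86736840 to 86793584, minus strand. Anxa7 (ENSMUSG00000021814) and Anxa11 (ENSMUSG00000021866) share chromosome 14, at 20455260 to 20480133 on the minus strand and 25842156 to 25886804 on the plus strand. In 6 of the 8 an annotated gene overlaps the member, among them the antisense gene Anxa11os. Reads were not described as strand-specific, but the overlapping genes with a value were nearly silent, the highest at 0.109 FPKM, the value of Gm44036 in the WT library. Anxa11 also shares 657 bases at 100% identity with Gm2260, an annotated pseudogene on the same chromosome, and 609 bases with a second one, Gm2274, both listed at 0 in each library, so how the authors' counting divided such reads bears on its value. For Anxa4 the stretches shared with other genes reached 121 bases, and for the other 6 members no stretch of at least 100 bases at 95% identity was found in another gene's transcript.

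The promoters of the members ranged from few to many CG dinucleotides, the site that the zinc finger of the Kdm2b protein is known to bind when unmethylated. RefSeq windows of 300 bases (250 before to 50 after an annotated start, GRCm38.p6) were at hand for 6 members, Anxa4 and Anxa7 with a pair of windows each. None was at hand for Anxa6 and Anxa3, the members with the lowest log2 ratios (-0.44 and -0.29). The windows of Anxa11, Anxa1 and Anxa5 are shown 5′ to 3′ on the strand of the gene. Anxa11 had the highest log2 ratio and Anxa5 was the most abundant member. Anxa1 had the lowest log2 ratio among members with a window. After the correction for length and GC content, Anxa2 was the lowest of them (-0.15, beside -0.05 for Anxa1). Whether CG content goes with the log2 ratio was not tested. Capitals mark CG dinucleotides and matches to TATAAA, the core of the TATA box.
Anxa11, chr14:25841905-25842204, plus strand: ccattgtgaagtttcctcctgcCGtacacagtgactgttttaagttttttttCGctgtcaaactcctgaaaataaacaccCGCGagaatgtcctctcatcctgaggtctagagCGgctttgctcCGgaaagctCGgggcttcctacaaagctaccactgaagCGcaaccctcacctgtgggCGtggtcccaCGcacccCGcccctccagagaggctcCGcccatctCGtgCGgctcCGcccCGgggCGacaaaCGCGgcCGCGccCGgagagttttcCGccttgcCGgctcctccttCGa
Anxa1, chr19:20390622-20390921, minus strand: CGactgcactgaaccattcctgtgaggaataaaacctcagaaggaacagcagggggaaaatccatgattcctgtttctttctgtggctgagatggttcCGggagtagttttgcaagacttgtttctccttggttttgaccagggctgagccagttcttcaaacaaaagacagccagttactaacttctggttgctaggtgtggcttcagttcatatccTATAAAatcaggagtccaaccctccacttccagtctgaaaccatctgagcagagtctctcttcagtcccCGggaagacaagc
Anxa5, chr3:36475838-36476137, minus strand: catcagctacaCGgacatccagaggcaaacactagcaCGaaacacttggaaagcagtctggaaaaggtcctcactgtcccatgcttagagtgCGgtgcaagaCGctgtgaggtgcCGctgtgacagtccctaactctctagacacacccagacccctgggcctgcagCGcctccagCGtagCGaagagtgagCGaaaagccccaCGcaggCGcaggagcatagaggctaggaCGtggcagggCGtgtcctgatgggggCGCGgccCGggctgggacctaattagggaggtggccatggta
Anxa11 had 25 CG dinucleotides in its window, more than 81.6% of the 32807 windows in the table, and an observed over expected CG ratio of 0.969. Anxa1 had 3, with a ratio of 0.179, and a TATAAA match 32 bases before the start. Anxa2 had 13 and also held TATAAA, 17 bases before the start. Anxa5 had 16, the Anxa4 windows 20 and 3, and the Anxa7 windows 19 and 4, against a median of 7 over all windows. Searched on both strands, TATAAA occurred in 13.6% of all windows and, among the 8 annexin windows, in those of Anxa1 and Anxa2. A match is a run of letters and does not show that a factor binds there.

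**Figure D4:**
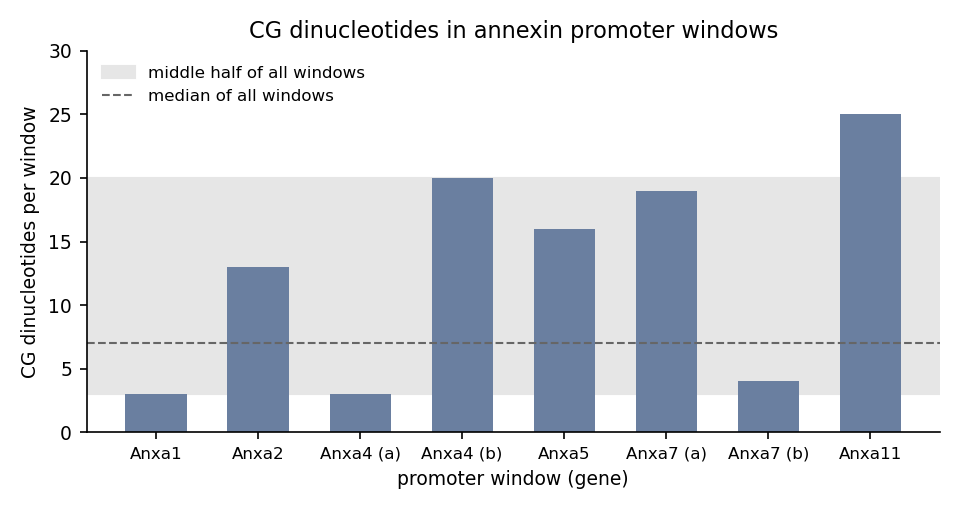
Number of CG dinucleotides in each 300-base promoter window of the 6 annexins with a window; (a) and (b) are the alternative starts of Anxa4 and Anxa7. The grey band holds the middle 50% of all 32807 windows (3 to 20) and the dashed line their median (7); Anxa11, at 25, is the one annexin above the band.

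The genes of 4 S100 proteins that bind annexins were abundant too. S100a10, the partner of Anxa2, was at 339 FPKM in the KO-labelled library and 373 FPKM in the WT library, which is 0.94 of the Anxa2 level in the KO-labelled library and 0.907 in the WT library. S100a11, a partner of Anxa1, was at 324 FPKM in the KO-labelled library and 374 FPKM in the WT library, which is 0.695 of the Anxa1 level in the KO-labelled library and 0.658 in the WT library. S100a6 was at 156 FPKM in the KO-labelled library and 182 FPKM in the WT library, and S100a4 at 129 FPKM in the KO-labelled library and 156 FPKM in the WT library. All 4 listed S100 partners lay below 0, with a median log2 ratio of -0.22 beside 0.10 for all genes, but the transcripts are short, and correcting for length and GC content put the median at 0.14. The formyl peptide receptor genes were lower in level than their ligand gene. Fpr2 was at 7.81 FPKM in the KO-labelled library and 11.5 FPKM in the WT library (log2 ratio -0.50), Fpr1 was at 6.11 FPKM in the KO-labelled library and 7.53 FPKM in the WT library (-0.26), and Fpr3 was listed at 0 in both. Corrected for length and GC content, the log2 ratios were -0.14 for Fpr2 and -0.014 for Fpr1.

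Genes of the processes in which annexins act were mixed, and 0 of those past the floor were 2-fold apart. Of all genes, 0.863% were 2-fold higher and 1.02% 2-fold lower, so a count of 0 does not set these few genes apart. The counts above 0 stand beside 63.2% of all genes, and the medians beside 0.10 for all genes. The correction for length and GC content keeps that median of all genes by design. In plasminogen activation at the cell surface, 3 of 7 genes lay above 0 and 4 below, and the median was -0.05, or 0.17 after the correction. Plat, the tissue plasminogen activator that binds Anxa2, was at 22.1 FPKM in the KO-labelled library and 12.7 FPKM in the WT library (0.75), and the plasminogen receptor gene Plgrkt at 4.20 FPKM in the KO-labelled library and 7.30 FPKM in the WT library (-0.67). The urokinase receptor gene Plaur was at 123 FPKM in the KO-labelled library and 161 FPKM in the WT library (-0.39). After the correction the log2 ratios were 0.74 for Plat, -0.31 for Plgrkt and -0.31 for Plaur. Pdcd6, which encodes the Anxa7 and Anxa11 partner ALG-2, was at 68.8 FPKM in the KO-labelled library and 81.2 FPKM in the WT library (-0.24, or -0.0074 after the correction). Of the 8 ALG-2 and ESCRT genes 4 lay above 0 and 4 below (median 0.03, or 0.0998 after the correction). Sec31a, a coat protein gene of vesicles leaving the endoplasmic reticulum, was at 6.69 FPKM in the KO-labelled library and 4.29 FPKM in the WT library (0.54). Pdcd6ip was at 16.1 FPKM in the KO-labelled library and 12.8 FPKM in the WT library (0.31). Corrected, the log2 ratios were 0.42 for Sec31a and 0.16 for Pdcd6ip. In calcium-triggered membrane repair 6 of 8 lay above 0, a share not set apart from that of all genes with so few genes (median 0.33, or 0.22 after the correction). In the same list, Ahnak, a large scaffold that binds Anxa2 and S100a10, was at 40.9 FPKM in the KO-labelled library and 26.1 FPKM in the WT library (0.63). Myof, a ferlin of membrane fusion, was at 97.5 FPKM in the KO-labelled library and 68.8 FPKM in the WT library (0.50). Ehd2 was at 4.90 FPKM in the KO-labelled library and 2.95 FPKM in the WT library (0.58). The correction put Ahnak at 0.46, Myof at 0.32 and Ehd2 at 0.41.

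Cells other than macrophages also left RNA in the libraries, and their markers did not move as one. The 8 mesothelial markers summed to 107 FPKM in the KO-labelled library and 106 FPKM in the WT library, each member between 2.10 and 32.6 FPKM in the KO-labelled library and between 1.28 and 25.4 FPKM in the WT library, with 3 above 0 and 5 below. The 6 fibroblast markers summed to 335 FPKM in the KO-labelled library and 291 FPKM in the WT library, most of it Dcn (251 FPKM in the KO-labelled library and 248 FPKM in the WT library, log2 ratio 0.02). Of these 6, 3 collagen genes were at least 2-fold higher, beside 0.863% of all genes past the floor, Pdgfra was at 0.58 and Lum at -0.35. Corrected for length and GC content, Col1a1 was at 1.60, Col1a2 at 1.06 and Col3a1 at 0.99, just short of 2-fold. Pdgfra was then at 0.42 and Lum at -0.22. The 6 B cell markers summed to 2.86 FPKM in the KO-labelled library and 27.3 FPKM in the WT library, and all 6 were lower in the KO-labelled library. Igkc (1.47 FPKM KO-labelled, 18.9 FPKM WT) and Ighm (0.992 FPKM KO-labelled, 6.92 FPKM WT) made up most of both sums. Among 6 neutrophil markers, a cell type known for Anxa1 and Anxa3, Ly6g, Mpo and Retnlg were listed at 0 in both libraries, and the sums were 14.8 FPKM in the KO-labelled library and 14.4 FPKM in the WT library. Nearly all of these sums was S100a8, at 14.6 FPKM in the KO-labelled library and 13.8 FPKM in the WT library, while S100a9 was at 0.256 FPKM in the KO-labelled library and 0.453 FPKM in the WT library. Of 6 T and NK cell markers 5 were listed at 0 in both. Dendritic cell markers summed to 86.8 FPKM in the KO-labelled library and 93.5 FPKM in the WT library, nearly all of it Itgax, which macrophages also express. The eosinophil, mast cell and platelet markers summed to 0.897 FPKM in the KO-labelled library and 1.73 FPKM in the WT library. The part of these cells in the annexin levels was not tested.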

How the data were processed

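Messenger RNA of 2 libraries was compared, 1 per genotype. The authors deposited 1 FPKM value per Ensembl gene and library, per the file headers. Tools listed without a role in the submitters' processing notes are HISAT2 2.0.4, StringTie 1.3.0 and edgeR, with builds GRCm38.p4 and mm10. Neither annotation release nor filters were stated. FPKM divides by transcript length and library size, so very abundant genes or unequal fragmentation move other genes' values.

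Symbols, positions, lengths and GC content came from GENCODE M21 (GRCm38), which named 34267 of 34745 IDs. The product of FPKM and length was a whole multiple of 1 step, within 0.02 of a fragment, for 92.5% of 1508 low genes with 1 transcript in the KO-labelled library and 92.2% of 1456 in the WT library. These steps gave the estimated fragments and exact Clopper-Pearson 95% intervals. For the members, which have several transcripts, fragments depend on the length assumed. Log2 ratios used a pseudocount of 1 FPKM, a floor of a mean of 1 FPKM and a fold of 2. The length and GC trend was removed by the medians of 20 bins each, and the median of all genes was then put back. Transcript copies were sought with BLAST, and the calculations were tested on simulated data. Python 3.11.15, numpy 2.4.6, scipy 1.17.1 and pandas 2.3.3 were used.

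The members, the 10 gene lists and the 8 marker lists were chosen with earlier results of these data known. The text names all members, their known partners and up to 3 genes with the largest absolute log2 ratio in each of the 10 gene lists. The rule did not cover the marker lists, whose named genes were picked with values in view. By the same rule it names the 3 genes nearest in level to Anxa5 and to Anxa6. Y-linked genes, Xist and within-library ratios were added with values in view. Alternatives tried were other pseudocounts, scalings, floors, fold thresholds and lengths.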

Additional observations from a re-analysis of the deposited data

How the results depend on the processing

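The counts of annexins 2-fold higher and 2-fold lower were each 0 in all 12 settings run. These include the main setting and thresholds of 1.5-fold and 4-fold. The share of all genes higher ran from 0.0553% at 4-fold to 4.7% at 1.5-fold, and the share lower from 0.199% to 2.8%. A count of 0 at 4-fold follows from 0 at 2-fold. Other floors and a protein-coding background leave the members' ratios as they are, so those settings could not change the counts. The members' median log2 ratio, -0.09 as reported, was -0.21 with the libraries scaled to a median of 0 (a shift of -0.10 in the median of all genes), -0.15 with equal upper quartiles, 0.0071 with equal FPKM totals and -0.0019 with the length and GC trend removed. It moved by less than the counting error with other pseudocounts. Other floors and a protein-coding background could not move it, because every member is protein-coding and lies above each floor tried. Anxa4, Anxa5 and Anxa7 changed side of 0 under the scalings to the median and to upper quartiles. Anxa6 ranged from -0.57 to -0.35 and Anxa11 from 0.22 to 0.43 over 10 settings. No paired analysis was possible because each group had 1 library. Counting error was smaller than the shift of the median scaling for each member but Anxa11, the one with the fewest fragments.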

Other observations

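Among other genes that act on the phospholipids annexins bind, 0 of those past the floor were 2-fold apart between the libraries. Beside 0.863% of all genes 2-fold higher and 1.02% 2-fold lower, a count of 0 among so few genes does not set them apart. Counts above 0 in this section stand beside 63.2% of all genes, and medians beside 0.10, which the correction for length and GC content keeps by design. All 6 copines and other C2-domain membrane binders past the floor lay above 0 (median log2 ratio 0.29, or 0.27 corrected). Cpne2 was at 16.4 FPKM in the KO-labelled library and 10.7 FPKM in the WT library, Esyt2 at 10.8 FPKM in the KO-labelled library and 8.03 FPKM in the WT library, and Cpne1 at 1.71 FPKM in the KO-labelled library and 1.17 FPKM in the WT library. Of 7 phosphatidylserine scramblases and flippases 5 lay above 0 (median 0.18, or 0.13 corrected), near the share and median of all genes. Ano6, a calcium-activated scramblase, was at 35.9 FPKM in the KO-labelled library and 25.0 FPKM in the WT library (log2 ratio 0.51, or 0.40 corrected). Plscr3 was at 4.89 FPKM in the KO-labelled library and 3.89 FPKM in the WT library. Atp11a was at 2.83 FPKM in the KO-labelled library and 2.30 FPKM in the WT library.

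Genes linked to the control and action of Anxa1 went both ways. The glucocorticoid receptor gene Nr3c1 was at 3.51 FPKM in the KO-labelled library and 6.05 FPKM in the WT library (log2 ratio -0.65). Its known target Sgk1 was at 25.0 FPKM in the KO-labelled library and 15.7 FPKM in the WT library (0.64), and Fkbp5 at 2.40 FPKM in the KO-labelled library and 1.35 FPKM in the WT library (0.53). Of the 6 genes of that list past the floor 4 lay above 0 (median 0.42, or 0.39 corrected), a share near that of all genes. Among 9 phospholipase A2 and eicosanoid genes 6 lay above 0, again near the share of all genes (median 0.10, or 0.0521 corrected), with Ptgs2 at 130 FPKM in the KO-labelled library and 101 FPKM in the WT library (0.36), Ptgs1 at 12.3 FPKM in the KO-labelled library and 8.95 FPKM in the WT library (0.42), and Lta4h at 28.7 FPKM in the KO-labelled library and 40.7 FPKM in the WT library (-0.49).

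By distance in log2(FPKM + 1) over the 2 libraries, the genes nearest to Anxa5 were Gm28661 (732 FPKM KO-labelled, 699 FPKM WT), Rpsa (691 FPKM KO-labelled, 701 FPKM WT) and Rpl4 (752 FPKM KO-labelled, 728 FPKM WT). Those nearest to Anxa6 were Gpx4 (37.4 FPKM KO-labelled, 51.2 FPKM WT), Nudt9 (36.4 FPKM KO-labelled, 48.8 FPKM WT) and Cd80 (37.4 FPKM KO-labelled, 51.6 FPKM WT). Likeness over 2 libraries is a description of level alone.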
